A study of Gallus gallus with 9 samples.

Results

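Genes that carry cells through mitosis were followed in cultured chicken primordial germ cells (PGCs), the embryonic precursors of sperm and eggs, before removal of basic fibroblast growth factor (bFGF), after 24 h without it and 24 h after its return. The members were chosen by symbol: probe sets annotated with a single gene symbol that begins with KIF, CENP, NCAP, CCNA, CCNB, AURK, PLK or BUB, or that is 1 of a short list of mitotic genes such as CDK1, CDC20, TTK, TPX2, PRC1, BIRC5 and TOP2A. This gave 84 genes with 181 probe sets, out of 13009 genes that have a probe set with a single symbol. Each gene was read from its brightest probe set. Of the 84 genes, 77 were bright enough on average to be tested, among 9125 tested genes in all. The symbols sort by name and not by function, so the KIF symbols also take in kinesins of axons, cilia and vesicles, and AURKAIP1, KIFAP3 and KIF1BP are binding partners rather than kinases or motors. AURKA, CCNB2, CDC25B, CDC25C and CENPA were not analysed here.

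RAW cells were in medium with 10 ng/ml human bFGF, -bFGF cells had been without it for 24 h, and +bFGF cells had gone through the same 24 h without bFGF and then 24 h with it. Each group has 3 arrays, and all 9 samples are PGCs grown without feeder cells, in medium with fetal bovine and chicken serum, from the blood of mixed-sex Korean Oge (KO) embryos of embryonic day 2.5. Blood of several embryos was combined. The methods say that experiments were repeated and name separate samples per group, but not whether these came from separate cultures, so a p-value here speaks for the spread among these 3 arrays per group, which may be technical. Each step also added 24 h in culture, and the effects of bFGF and of time cannot be told apart.

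In a dividing vertebrate cell, CDK1 bound to A-type and B-type cyclins starts mitosis, condensins and topoisomerase II compact the chromosomes, and kinesin motors, with proteins such as TPX2, build the spindle. Kinetochores assemble on the centromere proteins and catch spindle microtubules, BUB1, BUB1B, BUB3, MAD2L1 and TTK hold anaphase back until every chromosome is attached, and CDC20 then releases it. The messenger RNAs of many of these genes are made in waves towards the end of the cell cycle, so that in a growing culture their level reflects both how many cells are dividing and how much each cell makes. In RNA from whole cultures, fewer cells of a kind and less RNA per cell cannot be told apart.

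Values are MAS5 intensities, a linear measure of the brightness of a probe set, and their number of 3 per group limits the precision. Array medians were 71.3 to 82.3. The germ cell genes DAZL and DDX4 lay between 29081 and 40943 and between 18691 and 22552 over the 9 arrays. None of the 3 erythroid markers found by symbol exceeded 59.6 on any array, and the other erythroid markers looked for were not found. Of the 8 PGC markers found by symbol, all of them tested, 4 fell on withdrawal (LIN28A, CXCR4, DAZL and ITGB1) and none rose. Over all tested genes, 5.99% fell and 6.83% rose on withdrawal. The summed intensity of the PGC markers was 92300 to 96705 in RAW, 78367 to 89766 in -bFGF and 86160 to 92785 in +bFGF. Of the 9 fibroblast and mesenchyme markers listed, 6 were tested and 4 of them fell on withdrawal (COL1A2, PRRX1, COL1A1 and FN1), against the same 5.99% of all tested genes. The summed intensity of the 9 was 7971 to 9056 in RAW, 5997 to 6250 in -bFGF and 6785 to 7964 in +bFGF, and PDGFRA, TWIST1 and POSTN were too dim to be tested. Actin probes at the 3′ and 5′ ends of the transcript, a sign of RNA integrity, differed on the log2 scale by 0.622 to 0.733 in RAW, 0.702 to 0.779 in -bFGF and 0.334 to 0.587 in +bFGF. The +bFGF arrays thus lay below all RAW and all -bFGF arrays. The same measure for the control gene EF1a was 0.412 to 0.436 in RAW, 0.443 to 0.550 in -bFGF and 0.468 to 0.515 in +bFGF. For GAPDH it was -0.0694 to -0.0538 in RAW, -0.177 to -0.143 in -bFGF and -0.163 to -0.0784 in +bFGF. For both EF1a and GAPDH, the RAW arrays overlapped neither the -bFGF nor the +bFGF arrays. The part of these shifts in the changes described here was not tested.

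Most mitotic genes were not called when bFGF was taken away or when it came back, and the same held for most tested genes. Of all 9125 tested genes, 7955 were not called on withdrawal and 8374 on replacement. On withdrawal (-bFGF against RAW), 3 of the 77 tested members fell, 10 rose and 64 passed no test at an adjusted p under 0.05 (limma, two-sided, Benjamini-Hochberg over all 19220 tested probe sets). The fallen were 3.90% of the tested members, against 5.99% of all tested genes. The risen were 13.0%, against 6.83% of all tested genes. Without the p adjustment, 28 of the 77 members had a p under 0.05, against 2594 of all 9125 tested genes. The median change of the members was 0.04 on the log2 scale, against 0.03 for all tested genes, with 50 members above 0 and 27 below, against 5023 and 4102 of the 9125 tested genes. The -bFGF and RAW arrays did not overlap for 28 members (36.4%), against 35.4% of all genes. The estimate lay beyond 1.5-fold for 3 members (PLK2, KIF14 and KIFC2), which is 3.90%, against 4.67% of all tested genes.

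**Figure D1:**
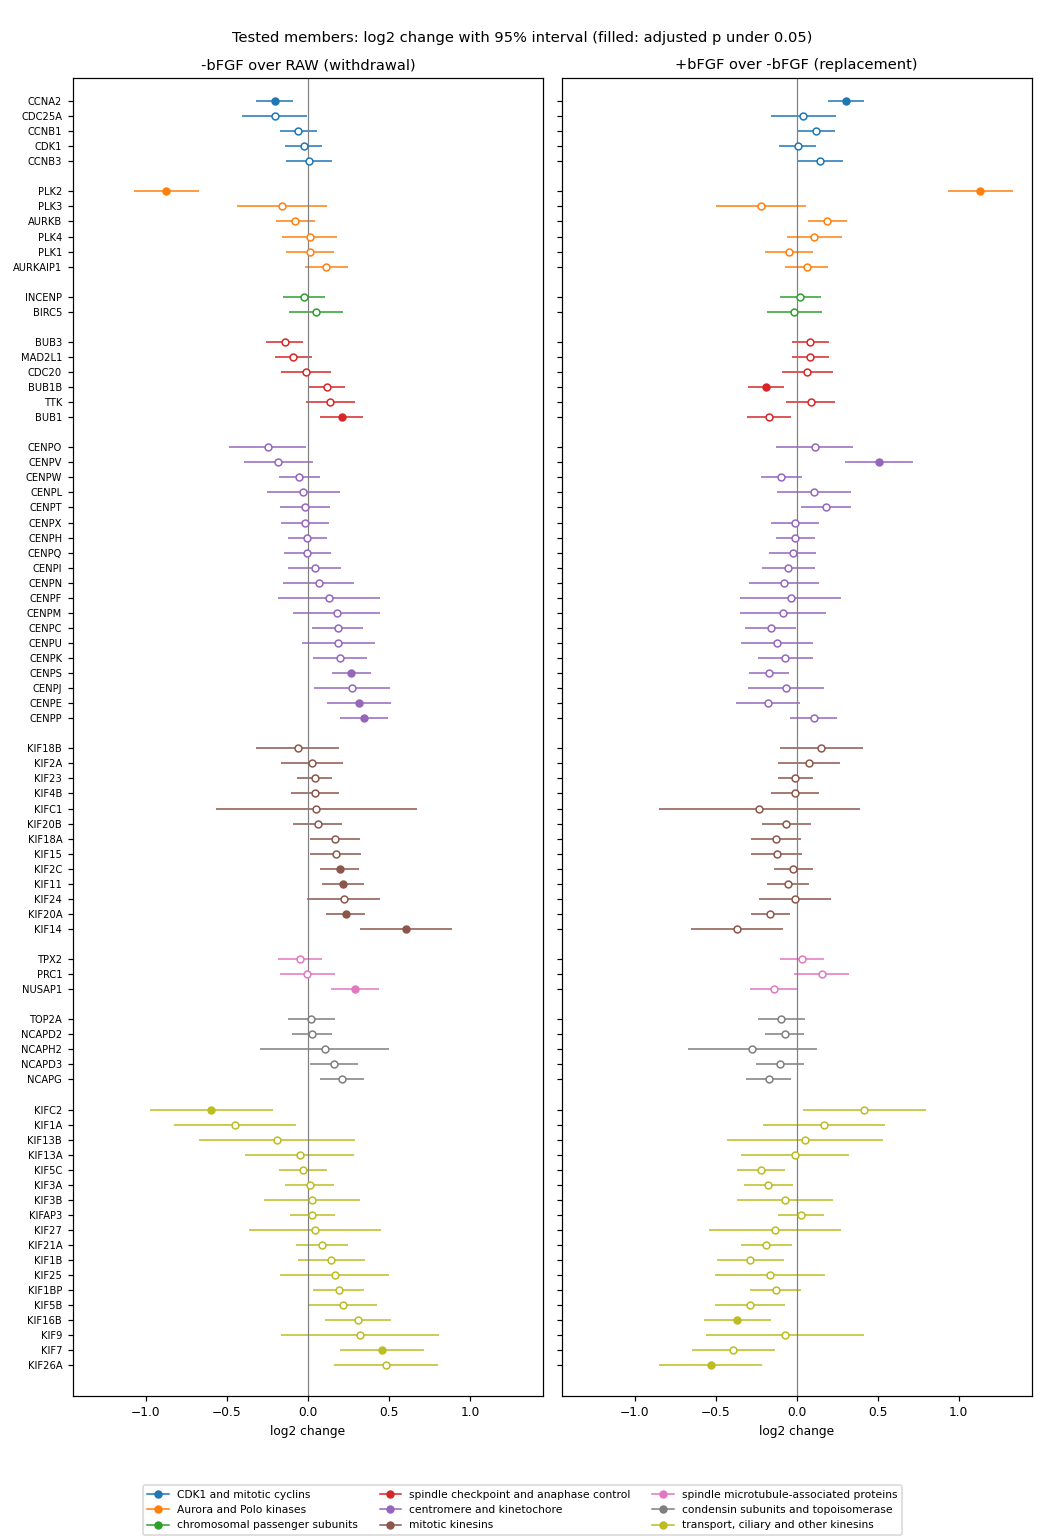
Log2 change with 95% interval for each of the 77 tested members, by role, on withdrawal (left) and on replacement (right). Filled points passed an adjusted p under 0.05: 13 members on withdrawal and 6 on replacement, with PLK2 far from the rest in both panels.

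PLK2, a Polo-like kinase that in mammals acts in centriole duplication and was first described as a serum-induced gene, changed most. Its intensity was 1042, 839 and 941 in RAW, 542, 528 and 468 in -bFGF and 1078, 1161 and 1131 in +bFGF. All -bFGF arrays lay far below every array with bFGF, and all +bFGF arrays lay above every RAW array. PLK2 fell by 0.87 (log2) on withdrawal (SE 0.0917, n = 3, adjusted p = 3.6e-05 from limma), to 0.546 times its RAW level, and rose by 1.13 on replacement (SE 0.0917, adjusted p = 3.0e-06), to 2.19 times its -bFGF level. Its other probe sets gave -1.02 and -0.88 on withdrawal and 1.18 and 1.15 on replacement, each called in the same direction. Withdrawal and replacement share the -bFGF arrays, so a chance deviation of those arrays enters both changes with opposite sign. The net change of PLK2 (+bFGF against RAW) was 0.26 (SE 0.0917, adjusted p = 0.15) and passed no test. PLK2 was among the genes that the study listed from these same samples.

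The other Polo-like and Aurora kinases showed no called change. PLK1, which drives centrosome maturation and mitotic entry, had 8838, 8893 and 10148 in RAW, 9295, 9254 and 9506 in -bFGF and 8462, 8837 and 9935 in +bFGF. The groups overlapped, and the withdrawal change of PLK1 was 0.01 (95% interval -0.13 to 0.16). AURKB, the kinase of the chromosomal passenger complex, had 7636, 7109 and 7319.8 in RAW, 7294, 7073 and 6531 in -bFGF and 7691, 8199 and 7927 in +bFGF. The +bFGF arrays of AURKB lay above all -bFGF arrays, with a replacement change of 0.19 (SE 0.0557) that missed the threshold (adjusted p = 0.061). Its partners in the complex, INCENP and BIRC5, changed by -0.02 (95% interval -0.15 to 0.10) and 0.05 (95% interval -0.12 to 0.22) on withdrawal. PLK4, the kinase that starts centriole duplication, changed by 0.01 (95% interval -0.16 to 0.18), while the dim PLK3 changed by -0.16 (95% interval -0.44 to 0.12).

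Of the 5 tested genes among CDK1, its A-type and B-type cyclins and CDC25A, CCNA2 alone was called. Over all tested genes, 5.99% fell on withdrawal and 4.02% rose on replacement. CCNA2 encodes cyclin A2, which acts in S phase and at the entry into mitosis. Its intensity was 3920.3, 3944 and 4209.8 in RAW, 3610.2, 3463 and 3391 in -bFGF and 4274, 4316 and 4320.4 in +bFGF. The 3 groups did not overlap, and the +bFGF arrays were nearly equal. CCNA2 fell by 0.21 on withdrawal (SE 0.0525, n = 3, adjusted p = 0.024 from limma) and rose by 0.30 on replacement (SE 0.0525, adjusted p = 0.0028), that is, to 1.23 times its -bFGF level. The net change was 0.10 (SE 0.0525, adjusted p = 0.36). Its other probe set was near background, with group means between 14 and 18, and was not tested.

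CDK1 and the B-type cyclins were not called in any comparison. CDK1, the kinase itself, had 14539.7, 14918 and 13602 in RAW, 14692, 14080.0 and 13499.5 in -bFGF and 14165, 14437 and 13839.6 in +bFGF. The 3 groups overlapped throughout, and the withdrawal change was -0.03 (95% interval -0.14 to 0.09). CCNB1, cyclin B1, the partner of CDK1 at mitotic entry, had 17757, 17877 and 18559 in RAW, 18399.5, 16986 and 16660.1 in -bFGF and 18006, 19148 and 19375 in +bFGF. CCNB1 changed by -0.06 on withdrawal (95% interval -0.17 to 0.05) and by 0.12 on replacement (95% interval 0.01 to 0.23, adjusted p = 0.22). CCNB3, cyclin B3, a B-type cyclin prominent in germ cells of several animals, averaged 1896 ± 24.6 in RAW, 1908 ± 146 in -bFGF and 2103 ± 66.1 in +bFGF (SD, n = 3), and passed no test. CDC25A, the phosphatase that activates CDKs, had non-overlapping -bFGF and RAW arrays (637 ± 52.7 in -bFGF and 733 ± 49.8 in RAW), but its change of -0.20 (SE 0.0932) missed the threshold with an adjusted p of 0.19.

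**Figure D2:**
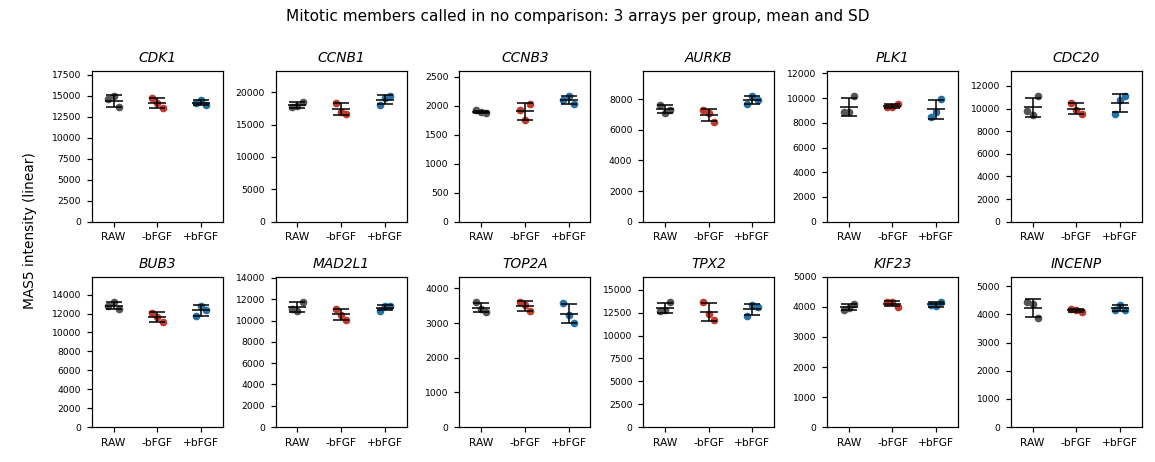
MAS5 intensity (linear axis from 0) of 12 mitotic genes called in no comparison, with 3 arrays per group as points and the group mean and SD as bars. CDK1 sits between 13499.5 and 14918 in all 9 arrays; MAD2L1 and KIF23 were added to the plot after their values were seen.

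Of the 6 tested spindle checkpoint and anaphase genes, 1 rose on withdrawal and 1 fell on replacement. Over all tested genes, 6.83% rose on withdrawal and 4.21% fell on replacement. BUB1, a checkpoint kinase that also marks the inner centromere, had 3989, 3849 and 3992 in RAW, 4698, 4442 and 4532 in -bFGF and 3690.3, 4324 and 4149 in +bFGF. The -bFGF arrays lay above all others, and BUB1 rose by 0.21 on withdrawal (SE 0.062, n = 3, adjusted p = 0.047 from limma). On replacement it changed by -0.17 (adjusted p = 0.13). BUB1 also stands in a functional list that the study drew from these samples. BUB1B, a core part of the mitotic checkpoint complex, had 5263, 5478 and 5140.5 in RAW, 5674, 5675 and 5881 in -bFGF and 5185, 5103 and 4834 in +bFGF. Its -bFGF arrays were again the highest, but in BUB1B the withdrawal change of 0.12 was not called (adjusted p = 0.17), while on replacement it fell by 0.19 (SE 0.0514, adjusted p = 0.044).

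BUB3, the subunit that brings BUB1 and BUB1B to kinetochores, had 12111, 11686 and 11101 in -bFGF, against 12824, 13248 and 12455 in RAW. All -bFGF arrays of BUB3 were below all RAW arrays, but the change of -0.14 (SE 0.0534) was not called (adjusted p = 0.11). CDC20, the activator of the anaphase-promoting complex, had 9747, 9466 and 11084 in RAW, 10512, 9908 and 9536 in -bFGF and 9550.1, 10772 and 11085 in +bFGF, with overlap of all groups. Its withdrawal change was -0.01 (95% interval -0.17 to 0.14). The change of MAD2L1, the inhibitor that keeps CDC20 in check, was -0.09 on withdrawal (95% interval -0.20 to 0.02) and that of TTK, the kinase that recruits the checkpoint to kinetochores, was 0.14 (95% interval -0.01 to 0.29).

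In the centromere and kinetochore group, 3 of 19 tested genes rose on withdrawal and none fell, against 6.83% risen and 5.99% fallen of all tested genes. By its symbol the group also takes in CENPJ, which encodes a centriole protein (0.27 on withdrawal, not called). The median of the group was 0.07, against 0.03, with 11 genes above 0 and 8 below, against 5023 above 0 of all 9125. CENPP, a subunit of the constitutive centromere network, had 1188, 1183 and 1337 in RAW, 1632, 1558 and 1519 in -bFGF and 1704, 1724 and 1636 in +bFGF. It was higher in every array after the start than in any RAW array, and it was the 1 member called in the net change. CENPP rose by 0.35 on withdrawal (SE 0.0676, n = 3, adjusted p = 0.0051 from limma) and its net change was 0.45 (adjusted p = 0.0035), with 0.11 on replacement (adjusted p = 0.42). The other tested probe set of CENPP did not show this: its means were 1033 in RAW, 973 in -bFGF and 943 in +bFGF, with changes of -0.09 on withdrawal (adjusted p = 0.49) and -0.13 net (adjusted p = 0.35).

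CENPS, a histone-fold protein of the kinetochore that also serves in DNA repair, had 3572, 3515 and 3487 in RAW, 4424, 4212 and 4106 in -bFGF and 4011, 3753 and 3571 in +bFGF. The -bFGF arrays stood above all others, and CENPS rose by 0.27 on withdrawal (SE 0.0571, adjusted p = 0.0089). CENPE, a kinesin motor that brings chromosomes to the spindle equator, had 1900.4, 1543 and 1958 in RAW, 2232, 2169 and 2277 in -bFGF and 1778, 2168 and 1976 in +bFGF. The lowest -bFGF array of CENPE stood level with the highest +bFGF array and above all RAW arrays. CENPE rose by 0.31 on withdrawal (SE 0.0918, adjusted p = 0.044), and its change of -0.18 on replacement was not called (adjusted p = 0.30). Its second probe set, which averaged 378 in RAW, 530.0 in -bFGF and 362 in +bFGF, rose by 0.51 (adjusted p = 0.046) and fell by 0.55 on replacement (adjusted p = 0.044).

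CENPV, a centromere-associated protein of mammalian cells, differed in pattern. It had 573, 606 and 663 in RAW, 543, 578 and 503 in -bFGF and 714, 731 and 866 in +bFGF, so that every +bFGF array exceeded all others. CENPV rose by 0.51 on replacement (SE 0.0981, n = 3, adjusted p = 0.0061 from limma), to 1.42 times its -bFGF level, while its withdrawal change of -0.18 (adjusted p = 0.27) and net change of 0.32 (adjusted p = 0.10) were not called. CENPW, which forms a histone-fold pair with CENPT, had 7577, 7010.0 and 7500.0 in RAW, 7331, 6837 and 7130.2 in -bFGF and 7046, 6710.2 and 6204 in +bFGF and passed no test.

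Of the 13 tested mitotic kinesins, 4 rose on withdrawal (KIF14, KIF20A, KIF11 and KIF2C), none fell and 9 were not called, against 6.83% risen and 5.99% fallen of all tested genes. Their median was 0.17, against 0.03 for all tested genes, and 12 lay above 0, as did 5023 of all 9125. Without RAW replicate 2 or without -bFGF replicate 1, the calls of KIF20A, KIF11 and KIF2C were lost, which leaves KIF14 (over all arrays left out, the adjusted p of the lost calls reached 0.0835, 0.125 and 0.141). KIF14, a motor of cytokinesis, had 207, 236 and 203 in RAW, 290.2, 350.0 and 344 in -bFGF and 291, 238 and 235 in +bFGF. All -bFGF arrays but 1 exceeded all others, and that 1 stood level with the highest +bFGF array. KIF14 rose by 0.61 on withdrawal (SE 0.132, n = 3, adjusted p = 0.011 from limma), to 1.52 times its RAW level, the highest estimate among the members. Its change on replacement was -0.37 (SE 0.132, adjusted p = 0.13). Its other probe sets, whose means lay between 98 and 121, gave 0.17 and 0.23 on withdrawal, neither called.

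KIF20A, which carries the chromosomal passenger complex to the central spindle, had 3797, 3510.3 and 3646 in RAW, 4424, 4311 and 4131 in -bFGF and 3847, 3978 and 3662 in +bFGF. The -bFGF arrays were the highest, with a rise of 0.23 (SE 0.056, adjusted p = 0.018) and a replacement change of -0.16 (adjusted p = 0.11). KIF11, the motor that pushes spindle poles apart, had 5345, 5371 and 5776 in RAW, 6935, 6105 and 6137 in -bFGF and 6129.7, 6255 and 6071 in +bFGF. Here 1 -bFGF array stood above the rest and the other two were level with +bFGF. KIF11 rose by 0.22 on withdrawal (SE 0.0595, adjusted p = 0.034), and its replacement change was -0.05 (adjusted p = 0.68). KIF2C, a kinesin that takes microtubules apart at centromeres, had 2527, 2557 and 2732 in RAW, 3010.4, 3046 and 2893 in -bFGF and 3024, 2930.4 and 2861 in +bFGF. Its -bFGF and +bFGF arrays overlapped, and both lay above all RAW arrays. KIF2C rose by 0.20 on withdrawal (SE 0.0557, adjusted p = 0.039) and changed by -0.02 on replacement (adjusted p = 0.87). A second probe set each of KIF11 (0.19, adjusted p = 0.049) and KIF2C (0.22, adjusted p = 0.045) was also called risen.

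**Figure D3:**
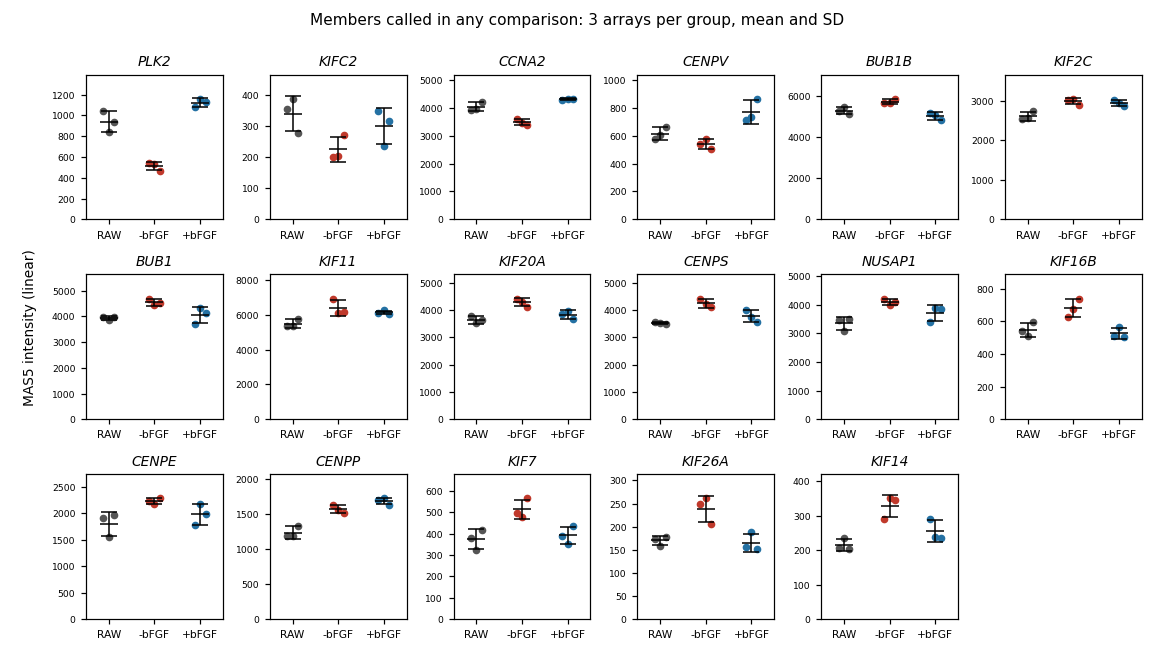
MAS5 intensity (linear axis from 0) of the 17 members called in any comparison, ordered by withdrawal change, with 3 arrays per group as points and mean and SD as bars. PLK2, KIFC2 and CCNA2, called fallen on withdrawal, have their lowest group mean in -bFGF; KIF14 averages 328 in -bFGF and 215 in RAW.

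NUSAP1, which bundles microtubules near chromosomes, had 3462, 3091 and 3490.1 in RAW, 4210.3, 3974 and 4080.4 in -bFGF and 3381, 3897 and 3862 in +bFGF. All -bFGF arrays lay above all others, and NUSAP1 rose by 0.29 on withdrawal (SE 0.0685, n = 3, adjusted p = 0.016 from limma), with a replacement change of -0.14 (adjusted p = 0.27). TPX2, which targets Aurora A to the spindle, had 12622, 12786 and 13618 in RAW, 13685, 12391 and 11689 in -bFGF and 12153, 13303 and 13130.4 in +bFGF. Its groups overlapped and its withdrawal change was -0.05 (95% interval -0.19 to 0.09). PRC1, which cross-links microtubules of the central spindle, averaged 1269 ± 127 in +bFGF and 1137 ± 36.1 in -bFGF (SD, n = 3), and was not called.

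All 5 condensin and topoisomerase genes had estimates above 0 on withdrawal and below 0 on replacement, and none was called in either. Over all tested genes, 5023 of 9125 lay above 0 on withdrawal and 53.7% below 0 on replacement. Both comparisons use the -bFGF arrays, so opposite signs are not independent. NCAPG, a condensin I subunit, had 1549, 1499 and 1597 in -bFGF, against 1264, 1346 and 1411 in RAW. The groups did not overlap, and the change of 0.21 (SE 0.0638) just missed the threshold with an adjusted p of 0.053. TOP2A, topoisomerase II alpha, which untangles sister chromatids, had 3601, 3409 and 3332 in RAW, 3617, 3527 and 3336 in -bFGF and 3581, 3232 and 3017 in +bFGF. Its groups overlapped, and its changes were 0.02 on withdrawal (95% interval -0.13 to 0.16) and -0.10 on replacement (95% interval -0.24 to 0.05).

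Of the 18 tested transport, ciliary and other kinesins, most of which carry cargo rather than chromosomes, 1 fell and 1 rose on withdrawal, near the 5.99% fallen and 6.83% risen of all tested genes, and 13 lay above 0. KIFC2, a motor that moves towards microtubule minus ends and is known from mouse neurons, had 356, 388 and 277 in RAW, 201, 205 and 270.3 in -bFGF and 350.0, 237 and 318 in +bFGF. The gap between the highest -bFGF array and the lowest RAW array was small. KIFC2 fell by 0.60 (SE 0.176, n = 3, adjusted p = 0.046 from limma), to 0.662 times its RAW level, and its change of 0.42 on replacement was not called (adjusted p = 0.20). KIF7, a ciliary kinesin of Hedgehog signalling, had 381, 325 and 419.7 in RAW, 498, 479 and 566 in -bFGF and 391, 353 and 434 in +bFGF. The -bFGF arrays were the highest, and KIF7 rose by 0.46 (SE 0.12, adjusted p = 0.027), while its replacement change of -0.39 was not called (adjusted p = 0.072). The other tested probe set of KIF7 gave -0.12 on withdrawal (adjusted p = 0.67).

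When bFGF was given back (+bFGF against -bFGF), 3 members fell (BUB1B, KIF16B and KIF26A) and 3 rose (PLK2, CENPV and CCNA2). The fallen were 3.90% of the 77 tested members, against 4.21% of all tested genes, and the risen were 3.90%, against 4.02%. Both shares are close to those of all genes. A p under 0.05 without adjustment was reached by 23 members, against 2035 of all 9125 tested genes. The median change was -0.05, against -0.02 for all tested genes, and the arrays did not overlap for 24 members (31.2%), against 27.2%. KIF16B, a motor of early endosomes, had 512, 567 and 505 in +bFGF, against 627, 676 and 740.2 in -bFGF, and fell by 0.37 (SE 0.0952, n = 3, adjusted p = 0.035 from limma). KIF26A, a kinesin known in the mouse for enteric nerve development, had 156, 187 and 152 in +bFGF, against 248, 261 and 207 in -bFGF, and fell by 0.53 (SE 0.148, adjusted p = 0.048). Both stood near their RAW levels again, with net changes of -0.06 and -0.05, and both had missed the threshold on withdrawal with rises of 0.31 and 0.48 (adjusted p = 0.054 each).

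In the transport, ciliary and other kinesins, 14 of the 18 tested lay below 0 on replacement, against 53.7% of all tested genes, with a median of -0.15, against -0.02. The test called 2 of them fallen, against 4.21% of all tested genes. KIF5C, a heavy chain of the kinesin that carries axonal cargo, had 2591, 2238 and 2205 in +bFGF, against 2735, 2767 and 2669 in -bFGF. No array of the 2 groups overlapped, and its change of -0.22 was not called (SE 0.0692, adjusted p = 0.079). Its second probe set, singled out after its values were seen, averaged 796 in RAW, 1021 in -bFGF and 636 in +bFGF, rose by 0.36 on withdrawal (adjusted p = 0.022) and fell by 0.68 on replacement (adjusted p = 0.00031). The brightest probe set of KIF5C changed by -0.03 on withdrawal, so that probe sets of this gene differed. Of the mitotic kinesins, none was called on replacement, and 11 of 13 lay below 0, with a median of -0.05, against 53.7% and -0.02 for all tested genes.

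Against the starting cells, 24 h after the return of bFGF (+bFGF against RAW), no member fell and CENPP alone rose. That is 0% fallen, against 1.85% of all tested genes, and 1.30% risen, against 1.62%. A p under 0.05 without adjustment was reached by 14 of the 77 tested members, against 1859 of all 9125 tested genes. The median change was 0.03, against 0.01 for all tested genes, and the arrays did not overlap for 18 members (23.4%), against 25% of all genes. No member had an estimate beyond 1.5-fold, against 1.71% of all tested genes.

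Genes with more than 1 tested probe set gave a check on the reading of a single probe set. There were 61 other tested probe sets, of 38 members. For the genes called on withdrawal, 11 of 13 other probe sets had the same sign as the brightest, 5 were called in the same direction and none was called in the opposite one. Over all 19220 tested probe sets, 5.33% were called fallen and 5.4% risen on withdrawal, and 3.42% and 3.37% on replacement. The 2 of opposite sign were those of CENPP and KIF7. On replacement, 4 of 5 had the same sign and 2 were called in the same direction, both of PLK2, while the dim second probe set of BUB1B gave 0.19 (adjusted p = 0.65). Other probe sets were called on withdrawal for 3 genes whose brightest was not: CENPN (0.37, adjusted p = 0.041), KIF5C and KIF16B.

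**Figure D4:**
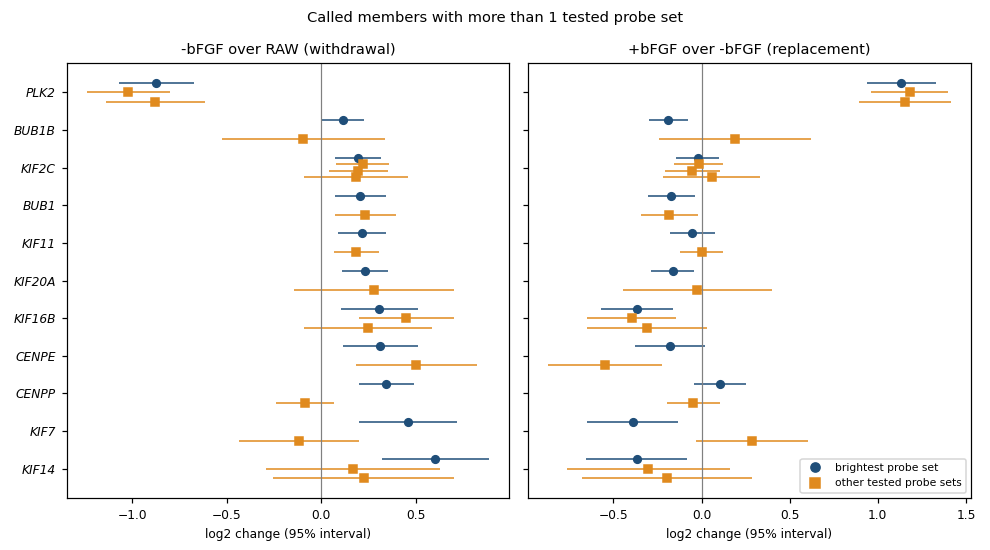
Log2 change with 95% interval of every tested probe set of called members that have more than 1, on withdrawal (left) and replacement (right); circles are the brightest probe set, squares the others. The 3 probe sets of PLK2 lie together, from -0.87 to -1.02 and from 1.13 to 1.18, while those of CENPP and KIF7 lie on opposite sides of 0 on withdrawal.

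The intervals set a limit on changes that the test did not call. The median SE of their changes was 0.0726, against 0.0948 for all tested genes. On withdrawal, the 95% interval lay within a 1.5-fold change either way for 68 of 77 members (88.3%), against 77.3% of all tested genes, and within a 1.2-fold change for 32. On replacement these counts were 69 and 29, and for the net change 71 and 34. For most members the interval thus reached beyond a 1.2-fold change.

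The higher share of risen members on withdrawal depended on single arrays. It was 3.90% of members, against 3.95% of all tested genes, without RAW replicate 2, and 3.90%, against 3.92%, without -bFGF replicate 1. Without RAW replicate 1 it was 6.49%, against 4.38%, without -bFGF replicate 2 it was 5.19%, against 3.90%, and without RAW replicate 3 it was 14.3%, against 5.49%. Without -bFGF replicate 3 it was 9.09%, against 4.04%. Without +bFGF replicates 1, 2 and 3 in turn it was 14.3%, 11.7% and 10.4%, against 7.87%, 6.21% and 6.72% of all tested genes. The calls for PLK2, CENPP, CENPS, CENPV and, on replacement, CCNA2 held whichever of the 9 arrays was left out. KIF14 missed the threshold only without -bFGF replicate 2 (adjusted p = 0.0522).

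**Figure D5:**
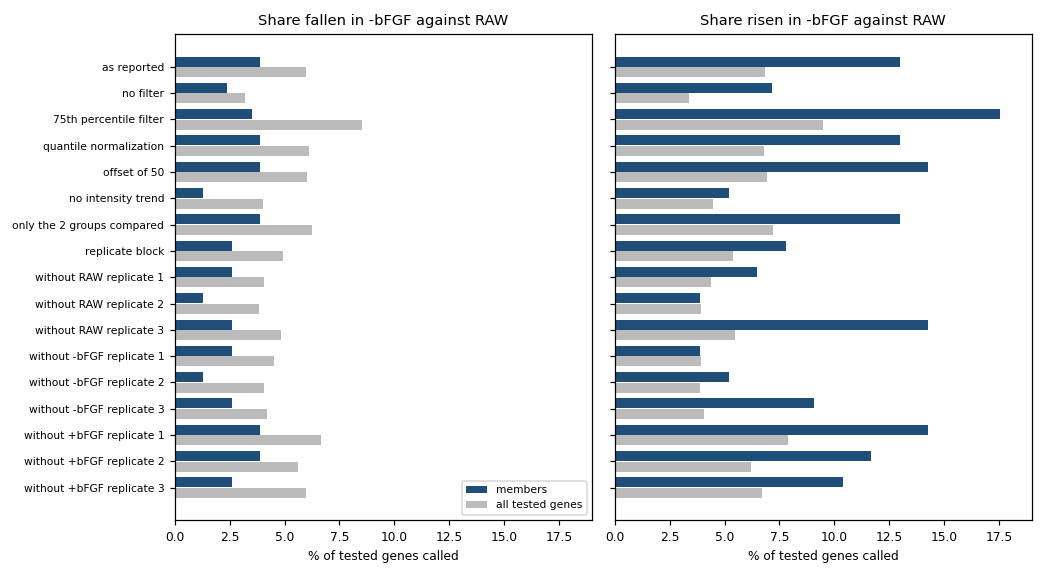
Percent of tested members (dark bars) and of all tested genes (grey bars) called fallen or risen on withdrawal, as reported and under each alternative that reads the brightest probe set. The risen share of the members is 13.0% as reported, and it meets that of all genes without RAW replicate 2 or -bFGF replicate 1.

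The other calls were each lost without certain arrays, always with the direction kept. On withdrawal, the NUSAP1 call was lost without RAW replicate 2 or -bFGF replicate 1 (adjusted p up to 0.0793), and that of KIF20A without RAW replicate 2 or either of -bFGF replicates 1 and 2 (up to 0.0835). CCNA2 was lost without replicate 2 or 3 of RAW or of -bFGF (up to 0.0865), KIF11 without replicate 1 or 2 of either (up to 0.125), and KIF7 without RAW replicates 1 or 2 or -bFGF replicates 1 or 3 (up to 0.113). KIFC2 was lost without RAW replicates 1 or 2, -bFGF replicates 1 or 2 or +bFGF replicate 3 (up to 0.166). CENPE kept its call only without RAW replicate 3 or +bFGF replicates 1 or 2 (otherwise up to 0.171), KIF2C only without RAW replicate 3 or +bFGF replicates 1 or 3 (otherwise up to 0.141), and BUB1 only without +bFGF replicates 1 or 2 (otherwise up to 0.15). On replacement, KIF16B was lost without -bFGF replicates 2 or 3 or +bFGF replicates 1 or 3 (up to 0.147), BUB1B kept its call only without RAW replicate 3 or +bFGF replicate 1 (otherwise up to 0.147), and KIF26A only without -bFGF replicate 3 or +bFGF replicate 2 (otherwise up to 0.189).

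Mitotic genes outside the symbol rule that were called all rose on withdrawal, and by little. Their calls rest on the same arrays as those of the members, and were not checked with single arrays left out. Of 73 further genes of spindle poles, cohesion, the anaphase-promoting complex and mitotic transcription, 69 were tested; on withdrawal 7 rose and none fell, 49 lay above 0 and the median was 0.08. Of all tested genes 6.83% rose and 5.99% fell, 5023 of 9125 lay above 0, and the median was 0.03. HMMR, a spindle protein that also binds hyaluronan, had 1068, 960.2 and 958 in -bFGF, against 795, 794 and 797 in RAW, and rose by 0.32 (SE 0.0871, n = 3, adjusted p = 0.031 from limma). DLGAP5, which stabilizes kinetochore fibres, rose by 0.27 (adjusted p = 0.034), ASPM, a spindle pole protein, by 0.27 (adjusted p = 0.040), and ANAPC5, a subunit of the anaphase-promoting complex, by 0.26 (adjusted p = 0.039). None of the 69 was called on replacement, where 5 had an unadjusted p under 0.05, or in the net change, where 7 did. Of all 9125 tested genes, 2035 on replacement and 1859 in the net change had such a p.

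Of 43 tested genes of DNA replication, 2 fell and 4 rose on withdrawal, against 5.99% fallen and 6.83% risen of all tested genes, with a median of 0.05, against 0.03. MCM2, a subunit of the replicative helicase, had 1857, 1941 and 1908 in -bFGF, against 2413, 2406 and 2524 in RAW, and fell by 0.36 (SE 0.0653, n = 3, adjusted p = 0.0029 from limma). PRIM1, the catalytic primase subunit, fell by 0.32 (adjusted p = 0.038). Subunits of the origin recognition complex rose, ORC6 by 0.31 (adjusted p = 0.023) and ORC4 by 0.27 (adjusted p = 0.0089). On replacement 1 of the 43 was called, DBF4, the activator of the origin-firing kinase CDC7, which fell by 0.36 (adjusted p = 0.0036). Over all tested genes, 4.21% fell and 4.02% rose on replacement. In the net change MCM2 alone was called, lower by 0.27 on the log2 scale in +bFGF than in RAW (adjusted p = 0.043). Over all tested genes, 1.85% fell and 1.62% rose in the net change.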

How the data were processed

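RNA of 9 PGC samples was hybridised to Affymetrix Chicken Genome arrays. The authors computed the deposited intensities with MAS5 (version not given in the sources used here) on a linear scale, scaled to 1 trimmed mean per array (500.1 with 2% left out at each end). MAS5 summarises a probe set within 1 array, so dim values are noisy. Here 96 array controls were left out and log2 values were fitted in limma 3.58.1 (R 4.3.3), with 1 mean per group over the 9 arrays and variances that follow intensity. Probe sets with a mean log2 value at or above the median (6.18, an intensity of 72.4) were tested, two-sided, with Benjamini-Hochberg adjustment within each comparison. The deposited table holds no comparisons by the authors.

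The probe set with the highest mean log2 value stood for a gene. Of the members, 7 lay below the filter: CCNA1, FBXO5, KIF2B, KIF12, KIF20AL, KIF21B and KIF6. All 84 gene identifiers are in the RefSeq gene table and no symbol differed. Of the 17 called members, 5 were read from probe sets marked as shared by several transcripts (_s_at) and 3 from sets marked for variants of 1 gene (_a_at). Probe sets have no coordinates or sequences here.

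Members and lists were chosen with earlier results of these data known. The text names every called member, a fixed set of core mitotic genes, the brightest and most changed member of each role group, and up to 4 called genes per further list. CDC25A, PLK3, PLK4, MAD2L1, TTK, PRC1, CENPN and KIF23 were named after their values were seen. CENPJ was also named outside these rules. Alternatives were no filter or one at the 75th percentile, quantile normalization, an offset of 50, a fit of the 2 groups alone, variances without the intensity trend, a block for replicate number, the mean of a gene's probe sets, and each array left out. The calls of the further mitotic genes and of the DNA replication genes were not followed under these alternatives.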

Additional observations from a re-analysis of the deposited data

How the results depend on the processing

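With no filter, 6 members rose on withdrawal (7.14%, against 3.40% of all genes) and 0 fell on replacement (2.14% of all genes). With the 75th percentile filter 57 members were tested, and on withdrawal 2 fell (3.51%, against 8.53%) and 10 rose (17.5%, against 9.47%). The median of these 57 was 0.0273 on withdrawal and -0.0217 on replacement, and that of all genes is not given for this filter. The risen share on withdrawal was 13.0%, against 6.78%, with quantile normalization and 14.3%, against 6.94%, with an offset of 50. It was 13.0%, against 7.22%, with only the 2 groups compared. With no intensity trend, 1 fell and 4 rose on withdrawal (1.30% and 5.19%, against 4.01% and 4.46%) and 1 fell on replacement (1.30%, against 3.01%), and with only the 2 groups compared 1 fell on replacement (1.30%, against 3.47%). With all probe sets of each gene averaged, 1 fell and 5 rose on withdrawal, 1 fell on replacement with a median of -0.0256, and 0 rose in the net change with a median of 0.0604. The share of all genes called was not computed for this mean. That mean takes in dim probe sets and turned CCNA2 to 0.127 on withdrawal (adjusted p = 0.75) and -0.0454 on replacement (adjusted p = 0.93), and BUB1B to 0.000771 on replacement (adjusted p = 0.997); the cause was not tested.

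With the replicate number as a block, 6 members rose on withdrawal (7.79%, against 5.39%) and 1 fell on replacement (1.30%, against 3.27%). Arrays of the same number correlated in their deviations from the group means by -0.213 to 0.0605 (9 pairs), against -0.146 to 0.167 for different numbers (18 pairs). With 3 arrays per group, these correlations cannot tell whether arrays of the same number came from shared cultures.

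With 1 array left out, 1 to 3 members fell on withdrawal (1.30% to 3.90%, against 3.81% to 6.65% of all tested genes). There 3 to 11 rose (3.90% to 14.3%, against 3.90% to 7.87%). On replacement 0 to 4 fell (0% to 5.19%, against 2.28% to 4.07%) and 3 rose (3.90%, against 2.56% to 3.91%). In the net change 0 to 1 fell (0% to 1.30%, against 0.658% to 1.98%) and 1 rose (1.30%). This risen share exceeded that of all tested genes except without replicate 1 of -bFGF or of +bFGF. The ends of paired ranges can come from different arrays. Medians were 0.0290 to 0.0629 on withdrawal, -0.0587 to -0.0242 on replacement and -0.00536 to 0.0422 in the net change. None of the 20 calls of single members changed sign there. An offset of 50 kept all 20, quantile normalization and the fit of only the 2 groups 18 each. The 75th percentile filter kept 16 and lost none of those it tested. No filter and the replicate block kept 12 each, and variances without the intensity trend kept 9. The mean of a gene's probe sets kept 8, lost 7 and turned the sign of 3. Array number limits what could be called, and dim members such as KIF14 have wide intervals.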
